A study of Homo sapiens with 6 samples.

Results

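The enzymes that make cholesterol and fatty acids, with the SREBP transcription factors that control them, were followed in OCI-AML3 cells by RNA sequencing. OCI-AML3 is an established human line from acute myeloid leukaemia, known for a mutant NPM1 allele whose product is called NPM1c. The labels give the genotype of every sample as WT. The siNPM1c group was transfected with an siRNA against NPM1c and the siControl group with a control siRNA, in each case at 10 nM with Lipofectamine RNAi MAX, and RNA was taken on day 3. Each group held 3 libraries, all under 1 batch label, and every library came from this single line. The genes were chosen by name, 32 of the 28307 genes in the deposited count table: 7 of the mevalonate steps, 11 of the squalene and sterol steps, 6 of SREBP control and sterol carriage, and 8 of fatty acid synthesis. The choice was made with earlier results of these data known. All 32 were found in the table, and 31 had enough counts to be tested. The exception was ELOVL6, an elongase of saturated fatty acids, with 0, 2 and 1 counts in the siNPM1c libraries and 0, 0 and 0 in the siControl libraries.

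Cholesterol is built from acetyl-CoA through mevalonate, isoprenoid diphosphates, squalene and lanosterol. Fatty acids are built from the same acetyl-CoA through malonyl-CoA and palmitate, and are then elongated and desaturated. SREBP proteins are held in the endoplasmic reticulum by SCAP and INSIG when sterols are plentiful. When sterols are scarce they travel to the Golgi, are cut by proteases and switch on genes of both routes, SREBP-2 mainly those of sterols and SREBP-1 mainly those of fatty acids.

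Total counts ran from 15338450 to 25190122 in the siNPM1c libraries and from 15075235 to 23828944 in the siControl libraries. Ribosomal RNA made up 70.2% ± 0.813 of all reads counted for siNPM1c and 63.8% ± 0.753 for siControl (SD, n = 3 each). Protein-coding genes made up 21.8% ± 0.495 for siNPM1c and 28.5% ± 0.457 for siControl. NPM1, the target, had 293, 500 and 350 counts in the siNPM1c libraries and 922, 1366 and 922 in the siControl libraries, with the mutant and wild-type alleles counted together. Levels are given in CPM, the usual depth-scaled counts, with library sizes adjusted by TMM. Of 8 myeloid marker genes, 6 exceeded 1 CPM in every library, and KIT was nearly absent. Their summed level was 512 to 526 CPM in the siNPM1c libraries and 432 to 438 in the siControl libraries. The 15 genes of lymphocytes, liver, epithelium, fibroblasts, erythroid and fat cells summed to 2.63 to 4.07 CPM in the siNPM1c libraries and 2.25 to 3.50 in the siControl libraries, with CD3D and HBB at 0 throughout. The markers differed in direction, with SPI1 (0.64 log2) and CEBPA (0.26 log2), which make up most of the sum, among 5 that were higher, PTPRC lower (-0.57 log2) and CD33 not past the test (-0.07 log2). The part of these differences in the results that follow was not tested.

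The 31 tested genes did not move together. In the siNPM1c libraries 15 were higher and 9 lower than in the siControl libraries, and 7 did not pass the test (edgeR's quasi-likelihood test, adjusted p under 0.05 by Benjamini-Hochberg over 12938 genes). Those that passed made up 77.4% of the 31, 48.4% upward and 29.03% downward. Among all tested genes 42.7% passed, 21.3% upward and 21.4% downward. The levels of the 2 groups did not overlap for 15 of the 31 genes in the upward and 9 in the downward direction, against 49.2% of all tested genes, 24.3% upward and 24.9% downward. Sterol genes lay mostly above zero with the entry enzyme HMGCS1 far below it, and the desaturases of the fatty acid branch lay below zero. The median log2 fold change (siNPM1c minus siControl) was 0.06 over the 31 genes and -0.01 over all tested genes. Changes were small. Only HMGCS1, PMVK, INSIG2 and SCD, 4 of the 31 (12.9%), differed by 0.5 or more on the log2 scale, against 20.6% of all tested genes, and none of the 31 reached 1. These genes are abundant, with a median level of 74.6 CPM against 6.73 over all tested genes, and a small change passes the test more readily at high counts. The part of level in the share that passed was not tested. In bulk RNA, fewer cells expressing a gene and less RNA of it per cell cannot be told apart.

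**Figure D1:**
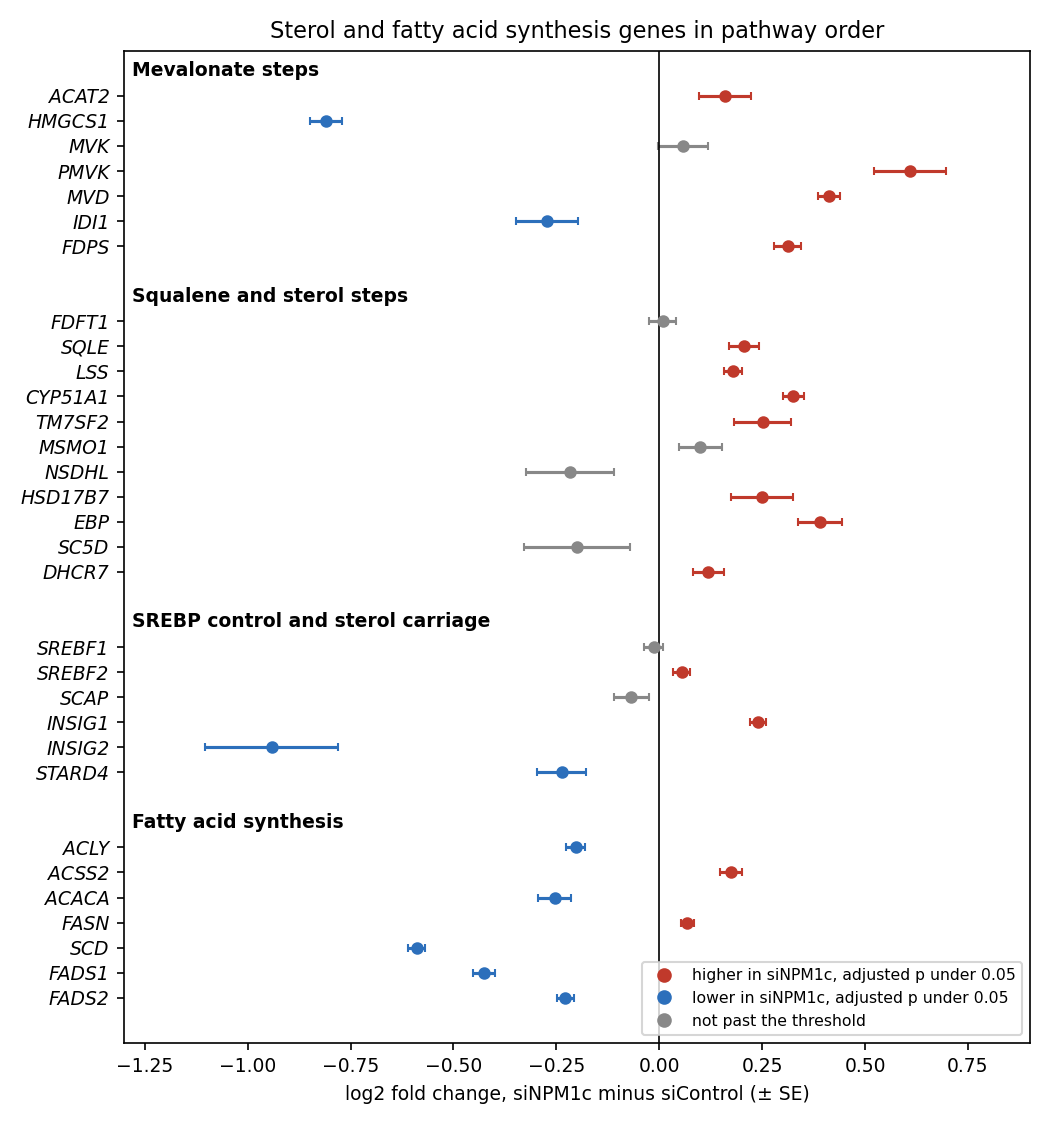
The log2 fold change of each of the 31 tested genes (siNPM1c minus siControl, horizontal axis) with its SE, in pathway order from top to bottom, coloured by the outcome of the test. HMGCS1, INSIG2 and SCD stand furthest to the left and PMVK furthest to the right, and no sterol gene after squalene synthase passed the test downward.

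Each direction given here rests on TMM scaling, by which most genes are set level. Scaled by library sizes alone, with rRNA, higher in the siNPM1c libraries, counted as depth, all tested genes shifted by a median of -0.47 log2. Of all genes, 505 were then higher and 9253 lower. Under that scaling 28 of the 31 genes were lower and none higher, and 14 of the 15 genes that were higher under TMM had a negative log2 fold change, with PMVK at 0.14 as the exception. GC content went with the fold changes too: the 20% of tested genes with the lowest GC content had a median of -0.22 log2, and the 20% with the highest a median of 0.09. Among the 31 genes GC content and log2 fold change had a Pearson r of 0.41 and a Spearman rho of 0.31, a description across genes that share the same 6 libraries. The labels do not state whether replicates were separate cultures, so the spread behind each p-value is that of these libraries and may be technical.

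**Figure D2:**
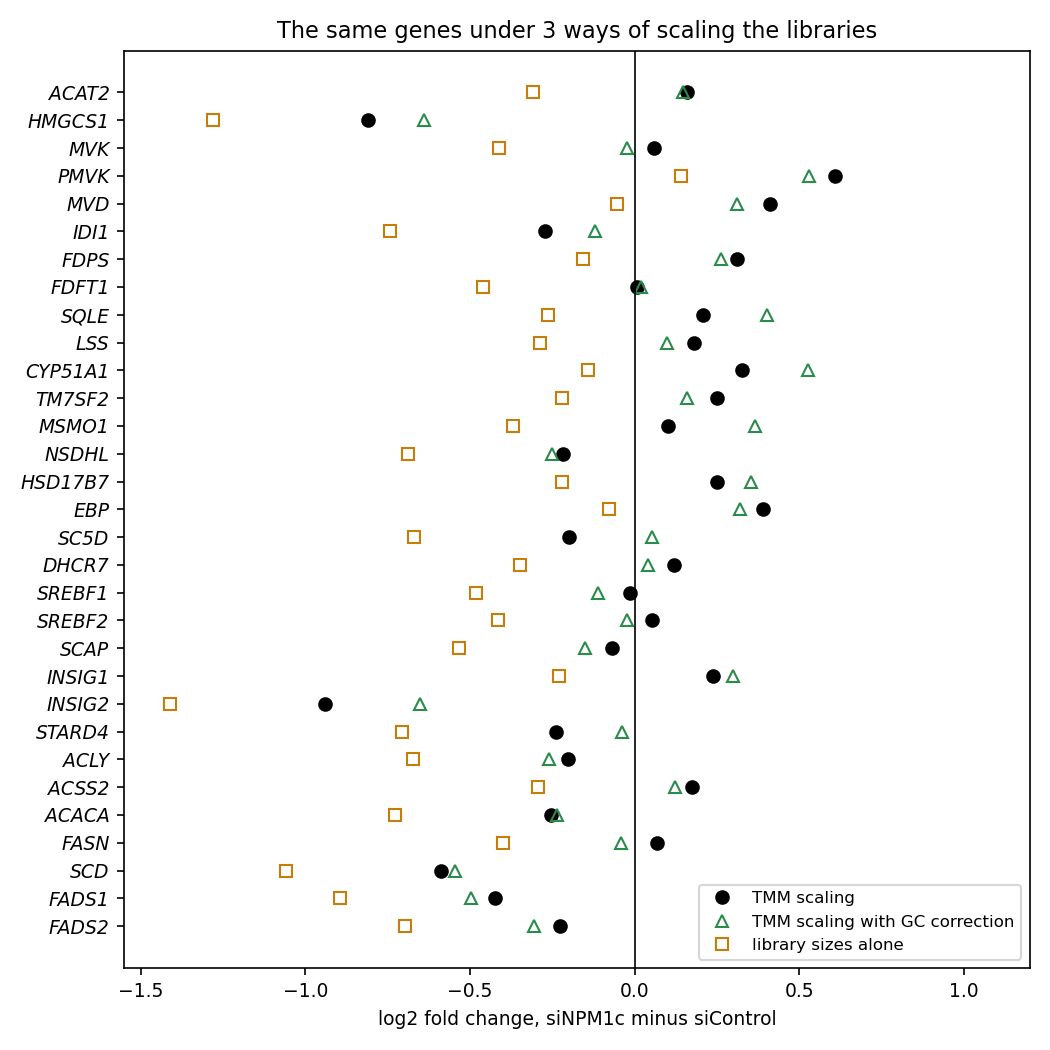
The log2 fold change of each tested gene (siNPM1c minus siControl) under TMM scaling (filled circles), TMM scaling with a correction for GC content (open triangles) and library sizes alone (open squares). The squares are shifted to the left of the circles throughout, while HMGCS1, INSIG2, SCD and FADS1 lie left of zero under all 3.

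The mevalonate steps held genes of both directions. Of 7 genes, 4 were higher (ACAT2, PMVK, MVD and FDPS) and 2 lower (HMGCS1 and IDI1) in the siNPM1c libraries, and MVK did not pass the test, beside 21.3% higher and 21.4% lower among all tested genes. HMGCS1 (Entrez gene 3157, chromosome 5), which condenses acetyl-CoA and acetoacetyl-CoA to HMG-CoA at the entry of the pathway, had 57.3, 53.8 and 51.5 CPM in the siNPM1c libraries, against 93.6, 93.1 and 98.4 CPM in the siControl libraries. The groups were far apart and no library stood out within them. HMGCS1 was thereby 1.75-fold lower (-0.81 ± 0.04 log2, SE, edgeR adjusted p = 4.22e-53). It was -0.64 with the GC correction and kept its call in all 18 alternatives.

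PMVK, the kinase that adds the last phosphate to mevalonate, had the largest increase of the 31 genes. Its levels were 16.3, 15.7 and 14.9 CPM in the siNPM1c libraries, against 10.4, 11.2 and 8.72 CPM in the siControl libraries. The lowest siNPM1c library lay above the highest siControl library, and the log2 fold change was 0.61 ± 0.09 (SE, edgeR adjusted p = 4.13e-10). MVD, which decarboxylates the product of PMVK to isopentenyl diphosphate, had 211, 206 and 197 CPM in the siNPM1c libraries, against 153, 156 and 151 CPM in the siControl libraries. These groups did not overlap either, and MVD was 1.33-fold higher (0.41 ± 0.03 log2, edgeR adjusted p = 6.74e-36). FDPS, the synthase of farnesyl diphosphate, averaged 111 ± 2.88 CPM in the siNPM1c libraries and 89.3 ± 4.65 CPM in the siControl libraries (SD, n = 3 each), a log2 fold change of 0.31 ± 0.03 (SE).

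Smaller differences were found at the other mevalonate steps. IDI1, the isomerase of isopentenyl diphosphate, had 14.3, 15.4 and 18.2 CPM in the siNPM1c libraries, against 19.1, 20.4 and 17.98 CPM in the siControl libraries. The groups overlapped, and the call (-0.27 ± 0.08 log2, edgeR adjusted p = 0.00143) was lost with the GC correction (adjusted p = 0.201). ACAT2, the cytosolic thiolase that supplies acetoacetyl-CoA, was higher by 0.16 ± 0.06 log2 (edgeR adjusted p = 0.0281). That call was lost without siNPM1c replicate 1 or 3 or siControl replicate 2 or 3, where the adjusted p was 0.112, 0.0818, 0.102 and 0.0575. It was also lost with DESeq2 (adjusted p = 0.105) and with no filter beyond 1 count (adjusted p = 0.102). MVK, the first kinase of mevalonate, had a log2 fold change of 0.06 ± 0.06 (edgeR adjusted p = 0.467). The ratio of HMGCS1 to MVD within a library does not depend on the scaling of the libraries. It was 0.272, 0.262 and 0.262 in the siNPM1c libraries, against 0.612, 0.598 and 0.650 in the siControl libraries. These ratios are without the GC correction, under which the log2 fold changes were -0.64 for HMGCS1 and 0.31 for MVD.

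The start regions of HMGCS1 and MVD, which changed in opposite directions, are shown because SREBP proteins act there together with the factor NF-Y, whose motif is CCAAT, which reads as ATTGG on the other strand. The windows are from RefSeq (GRCh38.p14), 300 bases from 250 before to 50 after a listed start, written 5′ to 3′ on the gene's strand, with CCAAT in capitals on either strand. HMGCS1 lies on the minus strand at chr5:43313363-43313662, the first of its 2 listed windows, and MVD on the minus strand at chr16:88663042-88663341.
HMGCS1: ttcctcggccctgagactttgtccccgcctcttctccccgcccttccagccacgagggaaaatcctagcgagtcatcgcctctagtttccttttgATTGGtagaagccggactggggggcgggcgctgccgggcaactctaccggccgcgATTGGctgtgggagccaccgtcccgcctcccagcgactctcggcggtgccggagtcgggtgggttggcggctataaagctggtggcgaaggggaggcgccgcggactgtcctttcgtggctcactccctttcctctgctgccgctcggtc
MVD: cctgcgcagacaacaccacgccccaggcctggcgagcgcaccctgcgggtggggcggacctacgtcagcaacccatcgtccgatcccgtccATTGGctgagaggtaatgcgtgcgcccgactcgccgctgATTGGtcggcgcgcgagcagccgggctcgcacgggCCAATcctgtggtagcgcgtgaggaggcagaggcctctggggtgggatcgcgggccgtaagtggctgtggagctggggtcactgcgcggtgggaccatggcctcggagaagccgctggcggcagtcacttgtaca
The HMGCS1 window held 2 matches and the MVD window 3.

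Of the squalene and sterol steps, 7 of 11 genes were higher in the siNPM1c libraries and none lower, where 21.3% of all tested genes were higher and 21.4% lower. CYP51A1, the demethylase of lanosterol, had 210, 214 and 221 CPM in the siNPM1c libraries, against 170, 173 and 171 CPM in the siControl libraries. The groups were separate, with a log2 fold change of 0.33 ± 0.03 (SE, edgeR adjusted p = 8.82e-27) and of 0.53 with the GC correction. EBP, the sterol isomerase, had 40.5, 39.3 and 39.4 CPM in the siNPM1c libraries, against 31.4, 30.9 and 28.4 CPM in the siControl libraries. It was 1.31-fold higher without overlap (0.39 ± 0.05 log2, edgeR adjusted p = 6.81e-11).

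The remaining calls of this branch were below 1.2-fold under TMM scaling. SQLE, the squalene epoxidase and a rate-limiting enzyme of the branch, averaged 84.5 ± 0.879 CPM in the siNPM1c libraries and 73.2 ± 1.33 CPM in the siControl libraries (SD, n = 3 each). LSS, which closes the sterol rings as lanosterol synthase, averaged 375 ± 7.14 CPM in the siNPM1c libraries and 331 ± 4.38 CPM in the siControl libraries. Neither gene overlapped between the groups, and their log2 fold changes were 0.21 ± 0.04 for SQLE and 0.18 ± 0.02 for LSS (SE). With the GC correction they were 0.40 for SQLE and 0.099 for LSS. TM7SF2, a sterol reductase, was higher by 0.25 ± 0.07 log2, a call lost with the GC correction (adjusted p = 0.0567). HSD17B7, a sterol ketone reductase, was higher by 0.25 ± 0.08 log2 (0.35 with the GC correction), and DHCR7, the reductase of the last step, by 0.12 ± 0.04 log2. Without siNPM1c replicate 1 these calls were lost (adjusted p = 0.123 for HSD17B7 and 0.0662 for DHCR7), and for DHCR7 also with the GC correction (adjusted p = 0.420) and with no filter beyond 1 count (0.0514).

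The other 4 sterol genes did not pass the test. FDFT1, the squalene synthase that commits farnesyl diphosphate to sterols, averaged 103 ± 2.54 CPM in the siNPM1c libraries and 102 ± 2.26 CPM in the siControl libraries (0.01 ± 0.03 log2, SE). MSMO1, a sterol methyl oxidase, had a log2 fold change of 0.10 ± 0.05 (edgeR adjusted p = 0.112). It passed without siControl replicate 3 (0.14, adjusted p = 0.0357) and with the GC correction (0.37, adjusted p = 1.71e-10). NSDHL, a sterol dehydrogenase, had a log2 fold change of -0.22 ± 0.11 and SC5D, the sterol desaturase, one of -0.20 ± 0.13, which became 0.05 with the GC correction.

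Summed over the 18 genes of the mevalonate, squalene and sterol steps, the level was 1465, 1425 and 1424 CPM in the siNPM1c libraries, against 1276, 1280 and 1278 CPM in the siControl libraries. The sums did not overlap. They averaged 1438 ± 23.03 CPM in the siNPM1c libraries and 1278 ± 2.23 CPM in the siControl libraries (SD, n = 3 each), a log2 ratio of 0.17. Abundant genes weigh most in such a sum. LSS, CYP51A1 and MVD, the most abundant of the 18, were all higher, while HMGCS1 and IDI1 were lower.

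**Figure D3:**
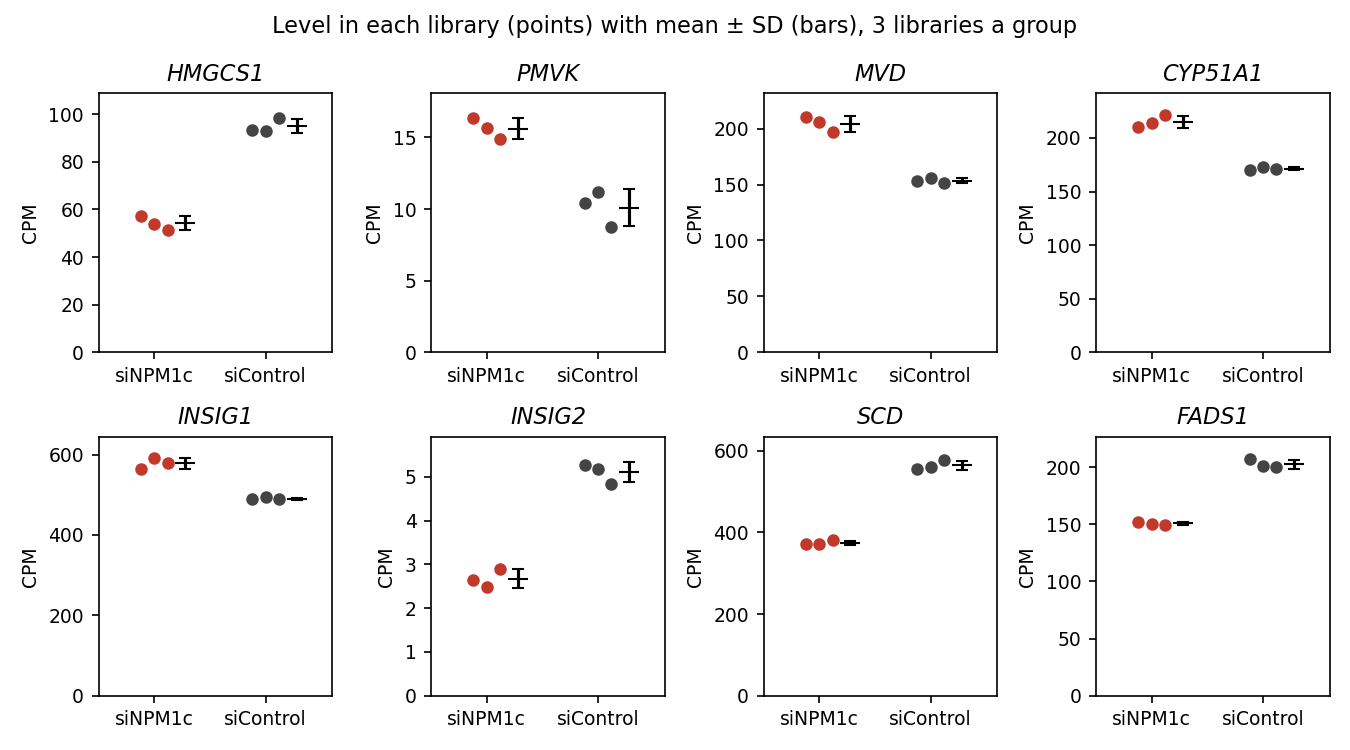
Level in CPM (vertical axes, from 0) of 8 genes in each library, siNPM1c on the left and siControl on the right of each panel, with mean and SD over 3 libraries beside the points. The groups are separate in every panel, with siNPM1c below siControl for HMGCS1, INSIG2, SCD and FADS1 and above it for PMVK, MVD, CYP51A1 and INSIG1.

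Among the SREBP regulators the INSIG genes were opposite and the SREBP genes nearly level. INSIG1, which retains SCAP in the endoplasmic reticulum and is itself a target of SREBP, had 565, 591 and 578 CPM in the siNPM1c libraries, against 489, 493 and 489 CPM in the siControl libraries. INSIG2, its paralog with the same role, had 2.63, 2.49 and 2.90 CPM in the siNPM1c libraries, against 5.28, 5.18 and 4.85 CPM in the siControl libraries. Neither gene overlapped between the groups. INSIG1 was higher by 0.24 ± 0.02 log2 (SE, edgeR adjusted p = 3.07e-25) and INSIG2 1.92-fold lower (-0.94 ± 0.16 log2, edgeR adjusted p = 1.66e-07), with the largest decrease of the 31 genes. INSIG2 rests on few reads, with 35, 52 and 43 counts in the siNPM1c libraries and 95, 143 and 90 in the siControl libraries, and its log2 fold change was -0.65 with the GC correction. The ratio of INSIG1 to INSIG2 does not depend on the scaling of the libraries. It was 215, 237 and 199 in the siNPM1c libraries and 92.5, 95.2 and 101 in the siControl libraries. These ratios are without the GC correction, under which INSIG1 had a log2 fold change of 0.30.

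SREBF1, the gene of SREBP-1, averaged 272 ± 3.91 CPM in the siNPM1c libraries and 274 ± 9.84 CPM in the siControl libraries (SD, n = 3 each), with overlapping groups. Its log2 fold change was -0.01 ± 0.02 (SE, edgeR adjusted p = 0.663), and with the GC correction -0.11 (adjusted p = 3.81e-06). SREBF2, the gene of SREBP-2, averaged 347 ± 7.48 CPM in the siNPM1c libraries and 335 ± 7.90 CPM in the siControl libraries, again with overlap. It passed the test at 0.05 ± 0.02 log2 (edgeR adjusted p = 0.0331), but not without siNPM1c replicate 2 (adjusted p = 0.195), siControl replicate 2 (0.0966) or siControl replicate 3 (0.162), and it had the opposite sign with the GC correction (-0.02). The SREBF2 call was also lost with DESeq2 (adjusted p = 0.101), upper-quartile factors (0.140), no filter beyond 1 count (0.360) and a filter of 5 CPM (0.0965). SCAP, the escort of SREBP, had a log2 fold change of -0.07 ± 0.04 (edgeR adjusted p = 0.190), which passed the test without siControl replicate 3 (-0.11, adjusted p = 0.0415) and with the GC correction (-0.15, adjusted p = 0.00166). STARD4, a soluble carrier of cholesterol, had 27.1, 26.9 and 27.6 CPM in the siNPM1c libraries, against 28.9, 31.3 and 36.1 CPM in the siControl libraries. STARD4 was lower by a narrow gap between the groups (-0.24 ± 0.06 log2, edgeR adjusted p = 0.000374), and the call was lost with the GC correction (-0.04, adjusted p = 0.652).

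Of the 28 genes with a listed window, SREBF2 alone held the sterol regulatory element searched, TCACNCCAC (GTGGNGTGA on the other strand). The windows of SREBF2, INSIG1 and INSIG2 are shown for that reason and because the pair of INSIG genes changed in opposite directions. They lie on the plus strand of GRCh38.p14 at chr22:41832855-41833154, chr7:155297628-155297927 and chr2:118088221-118088520, the last being the first of the 2 windows listed for INSIG2. Capitals mark TCACNCCAC and CCAAT on either strand.
SREBF2: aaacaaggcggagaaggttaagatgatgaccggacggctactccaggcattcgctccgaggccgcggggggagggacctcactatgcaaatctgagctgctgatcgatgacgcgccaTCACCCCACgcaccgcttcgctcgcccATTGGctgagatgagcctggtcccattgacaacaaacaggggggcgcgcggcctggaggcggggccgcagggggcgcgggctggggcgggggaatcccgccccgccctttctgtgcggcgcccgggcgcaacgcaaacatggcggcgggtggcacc
INSIG1: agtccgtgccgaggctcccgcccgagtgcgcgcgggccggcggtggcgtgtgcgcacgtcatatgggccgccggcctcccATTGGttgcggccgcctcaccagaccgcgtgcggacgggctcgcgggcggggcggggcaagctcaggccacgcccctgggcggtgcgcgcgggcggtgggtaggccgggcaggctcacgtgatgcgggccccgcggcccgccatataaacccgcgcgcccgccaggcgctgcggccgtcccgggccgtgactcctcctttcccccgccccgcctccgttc
INSIG2: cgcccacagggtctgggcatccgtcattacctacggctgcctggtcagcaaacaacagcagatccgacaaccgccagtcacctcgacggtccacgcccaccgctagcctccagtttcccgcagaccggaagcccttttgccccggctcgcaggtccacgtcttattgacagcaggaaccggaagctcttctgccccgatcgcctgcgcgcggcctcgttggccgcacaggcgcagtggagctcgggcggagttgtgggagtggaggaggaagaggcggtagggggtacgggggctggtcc
The SREBF2 window held 1 match of each motif, the INSIG1 window 1 CCAAT match, and the INSIG2 window neither.

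Windows were listed for 28 of the 32 genes, 39 in all, and 4 letter motifs were counted in them on both strands beside all 35116 listed windows. CCAAT was found in 64.1% of the 39 windows and in 34.6% of all windows. By gene it was present for 10 of the 12 higher genes with a window, 7 of the 9 lower genes and 4 of the 6 that did not pass. GGGCGG, the core of the Sp1 motif, was found in 89.7% of the 39 windows and in 44.95% of all windows. CACGTG, an E-box that SREBP-1 can bind, was found in 12.8% of the 39 windows and in 7.26% of all windows, and TCACNCCAC in 2.56% of the 39 windows and in 1.13% of all windows. By gene CACGTG was present for LSS, SC5D, SCAP and INSIG1, and not for INSIG2, SREBF2, HMGCS1 or MVD. It is not in capitals in the INSIG1 window above. The 35116 windows were taken without regard to the level of their genes, and a gene may have several. Motif counts overlap where a window holds several of them, and a match of letters is not a bound site. Nor does a window without a match show that a gene lacks such an element, as only these letters were searched there.

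Fatty acid synthesis held 5 lower genes and 2 higher genes among 7 tested, beside 21.4% lower and 21.3% higher among all tested genes. SCD, the stearoyl-CoA desaturase that makes oleate, had 372, 373 and 381 CPM in the siNPM1c libraries, against 556, 561 and 576 CPM in the siControl libraries. The groups were far apart, and SCD was 1.504-fold lower (-0.59 ± 0.02 log2, SE, edgeR adjusted p = 9.25e-76), the smallest p of the 31 genes. FADS1 and FADS2, the desaturases of polyunsaturated fatty acids, lie beside each other on chromosome 11 and were both lower. FADS1 had 152, 151 and 149 CPM in the siNPM1c libraries, against 207, 201 and 200 CPM in the siControl libraries. FADS2 had 453, 448 and 435 CPM in the siNPM1c libraries, against 528, 518 and 519 CPM in the siControl libraries. Both separated the groups, and the decrease was -0.43 ± 0.03 log2 for FADS1 (edgeR adjusted p = 2.89e-37) and -0.23 ± 0.02 for FADS2 (edgeR adjusted p = 1.14e-22). The ratio of FADS1 to FADS2 was 0.336, 0.336 and 0.343 in the siNPM1c libraries and 0.391, 0.387 and 0.385 in the siControl libraries, so FADS1 was the lower of the pair under any scaling.

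The enzymes that supply and use acetyl-CoA divided. ACLY, which makes acetyl-CoA from citrate, averaged 283 ± 4.66 CPM in the siNPM1c libraries and 325 ± 1.255 CPM in the siControl libraries (SD, n = 3 each), a log2 fold change of -0.20 ± 0.02 (SE, edgeR adjusted p = 7.18e-16). ACACA, the carboxylase that makes malonyl-CoA, averaged 57.7 ± 0.749 CPM in the siNPM1c libraries and 69.1 ± 3.35 CPM in the siControl libraries, with -0.25 ± 0.04 log2 (edgeR adjusted p = 1.78e-08). ACSS2, which makes acetyl-CoA from acetate, went the other way, at 170 ± 1.077 CPM in the siNPM1c libraries and 151 ± 2.42 CPM in the siControl libraries, a log2 fold change of 0.17 ± 0.03 (edgeR adjusted p = 9.61e-09). For each of these 3 genes the groups did not overlap.

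FASN, the fatty acid synthase that makes palmitate, had the highest level in CPM of all tested protein-coding genes. Its levels were 4311, 4291 and 4196 CPM in the siNPM1c libraries, against 4111, 4054 and 4043 CPM in the siControl libraries. Although separate, the groups differed by only 0.07 ± 0.02 log2 (SE, edgeR adjusted p = 0.000145), and with the GC correction FASN was lower instead (-0.04, adjusted p = 0.00564). FASN made up 50.4% of the summed level of the 32 genes in the siNPM1c libraries and 48.6% in the siControl libraries. The ratio of SCD to FASN was 0.0863, 0.0868 and 0.0907 in the siNPM1c libraries, against 0.135, 0.138 and 0.143 in the siControl libraries.

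The summed level of the fatty acid branch depended on which genes it included. All 8 genes summed to 5748 ± 63.5 CPM in the siNPM1c libraries and 5903 ± 36.4 CPM in the siControl libraries (SD, n = 3 each), a log2 ratio of -0.04. Without SCD alone the sum averaged 5373 ± 68.3 CPM in the siNPM1c libraries and 5339 ± 43.9 CPM in the siControl libraries, with overlapping groups and a log2 ratio of 0.0091. Without FASN and SCD the sums were 1114, 1106 and 1100 CPM in the siNPM1c libraries, against 1278, 1263 and 1267 CPM in the siControl libraries. The sum was lower by a log2 ratio of -0.20 without overlap between the groups, although ACSS2, which it includes, was higher and ELOVL6 had almost no counts.

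**Figure D4:**
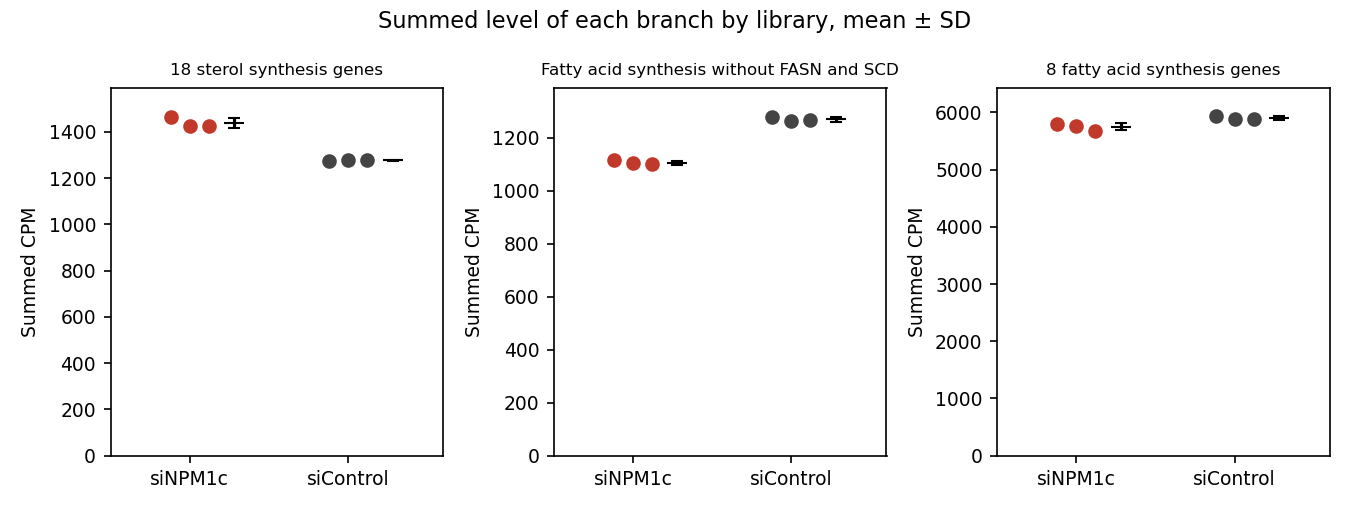
Summed CPM (vertical axes, from 0) of the 18 sterol synthesis genes, of the 6 fatty acid synthesis genes other than FASN and SCD, and of all 8 fatty acid synthesis genes, in each library, siNPM1c left of siControl, with mean and SD. The sterol sum is higher in the siNPM1c libraries and the fatty acid sum without FASN and SCD lower.

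Levels were compared between genes per kilobase of the longest coding transcript in GENCODE 29, in CPM per kilobase. FASN stood highest, with 498 in the siNPM1c libraries and 475 in the siControl libraries, followed by INSIG1 with 192 and 163. FADS2 came next with 123 and 144, and at the low end INSIG2 had 1.03 in the siNPM1c libraries and 1.97 in the siControl libraries. SREBF1 with 64.0 and 64.5 and SREBF2 with 64.7 and 62.4 lay close together, and their difference was not tested. SCD had 70.0 in the siNPM1c libraries, below MVD with 112, and 105 in the siControl libraries, above MVD with 84.1, so the order of these genes was exchanged between the groups.

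Genes around the pathway were described from 5 lists. Of 10 tested genes of the isoprenoid branches, which turn farnesyl diphosphate and its products into protein anchors, dolichol and ubiquinone, 5 were lower and 2 higher, with a median log2 fold change of -0.20. Of all tested genes 21.4% were lower and 21.3% higher. The listed genes had a median GC content of 43.2%, against 50.9% over all tested genes, and the part of GC content was not tested. PGGT1B, a subunit of geranylgeranyl transferase, was lower on few reads (-0.85 ± 0.17 log2). FNTA, the shared subunit of prenyl transferases, was lower as well (-0.42 ± 0.12 log2). PDSS2, a subunit of the ubiquinone side-chain synthase, was lower (-0.47 ± 0.14 log2), a call lost without siNPM1c replicate 2 or siControl replicate 3 (adjusted p = 0.0641 and 0.0756) or with DESeq2 (0.0543). COQ2, the next enzyme of ubiquinone synthesis, was higher by 0.56 ± 0.12 log2. With the GC correction the log2 fold changes were -0.65 for PGGT1B, -0.37 for FNTA, -0.33 for PDSS2 and 0.58 for COQ2.

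Of 13 tested genes of SREBP processing and sterol-regulated protein degradation, 4 were lower (30.8%) and 1 higher (7.69%), with a median of -0.03. Among all tested genes 21.4% were lower and 21.3% higher. Both directions together made up 38.5% of the list, against 42.7% of all tested genes. Both SREBP proteases were among the lower genes. MBTPS2, the site-2 protease, averaged 1.90 ± 0.345 CPM in the siNPM1c libraries and 4.13 ± 0.0954 CPM in the siControl libraries (SD, n = 3 each). Its log2 fold change was -1.10 ± 0.18 (SE, edgeR adjusted p = 8.20e-08), and -0.88 with the GC correction. MBTPS1, the site-1 protease, was lower (-0.30 ± 0.06 log2), and MARCHF6, a ubiquitin ligase that acts on SQLE protein, was lower as well (-0.26 ± 0.04 log2). ERLIN2, a membrane scaffold in sterol-regulated degradation, averaged 35.4 ± 1.18 CPM in the siNPM1c libraries and 22.4 ± 2.17 CPM in the siControl libraries, with 0.65 ± 0.06 log2 (edgeR adjusted p = 2.55e-21).

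Of 20 tested genes of fatty acid elongation, activation and supply, 7 were lower and 2 higher, with a median of -0.04. The 45% that passed were close to the 42.7% of all tested genes. By direction 35% were lower and 10% higher, against 21.4% and 21.3% of all tested genes. ACSL1, which activates long-chain fatty acids to acyl-CoA, averaged 105 ± 0.457 CPM in the siNPM1c libraries and 49.9 ± 0.462 CPM in the siControl libraries (SD, n = 3 each). Its log2 fold change of 1.07 ± 0.04 (SE, edgeR adjusted p = 7.03e-75) was larger in size than that of any of the 31 genes tested above. MID1IP1, which promotes the activity of acetyl-CoA carboxylase, was higher by 0.34 ± 0.03 log2. SCD5, the other human stearoyl-CoA desaturase, was lower on few reads (-0.91 ± 0.18 log2). HSD17B12, a reductase of the elongation cycle, was lower as well (-0.58 ± 0.10 log2, and -0.40 with the GC correction).

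In the list of glycerolipid and sterol ester assembly 2 of 12 tested genes were lower and 2 higher, and in the list of sterol handling 1 of 12 was lower and 2 higher. These shares are below the background of 42.7%. AGPAT5, an acyltransferase of phosphatidic acid synthesis, was lower at 7.86 ± 0.167 CPM in the siNPM1c libraries, against 15.4 ± 0.820 CPM in the siControl libraries (SD, n = 3 each; -0.98 ± 0.09 log2, SE, edgeR adjusted p = 6.83e-20). Its relative AGPAT3 was higher by 0.29 ± 0.04 log2 and AGPAT2 by 0.10 ± 0.04, with -0.01 for AGPAT2 under the GC correction and its call lost with DESeq2 (adjusted p = 0.0673) and with no filter beyond 1 count (0.115). AGPAT1 was lower (-0.17 ± 0.07 log2), a call that held only without siControl replicate 3 when single libraries were left out, and that was lost with DESeq2 (adjusted p = 0.183), DESeq2 size factors (0.0515) and limma-voom (0.0515). GRAMD1B, which moves cholesterol from the plasma membrane to the endoplasmic reticulum, was higher by 1.78 ± 0.40 log2 at a low level of 0.986 ± 0.0588 CPM in the siNPM1c libraries, against 0.273 ± 0.0555 CPM in the siControl libraries. STARD3, an endosomal sterol transporter, was higher by 0.23 ± 0.06 log2. TMEM97, an endoplasmic reticulum protein of sterol homeostasis, was lower (-0.23 ± 0.08 log2), a call lost without siNPM1c replicate 1 or 2 or siControl replicate 2 (adjusted p = 0.0760, 0.0932 and 0.0725) or with DESeq2 (0.116).

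Counts of some of these genes may not be separate from those of their neighbours. Exons of 11 of the 32 genes overlap exons of another gene of the count table in GENCODE 29, among them FADS1 with FADS2, ACAT2 with TCP1 and SOD2, TM7SF2 with VPS51, and FADS2 with FEN1, and the strand setting of the counting is not given in the sources used here. Processed or other pseudogenes named after them exist for 5 genes, which are FDPS, CYP51A1, HSD17B7, SCD and FADS2.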

How the data were processed

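RNA of OCI-AML3 cells was sequenced in 3 siNPM1c and 3 siControl libraries. The authors deposited raw counts per Entrez gene, without normalization. Per the submitters' processing notes, CASAVA 1.8, cutadapt 2.6, STAR 2.7.5a and DESeq2 1.34.0 were used, with the builds hg38 and mm10 named. What each was used for, and how reads were counted (tool, annotation, strand, reads with several placements), is not given in the sources used here. Of 28307 genes, 28261 were matched to symbols through RefSeq (GRCh38.p14).

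Counts were analysed with edgeR 4.0.16 in R 4.3.3: filterByExpr (minimum count 10, minimum total 15), TMM scaling, glmQLFit with robust = TRUE and a two-sided quasi-likelihood test of siNPM1c minus siControl over all genes, with Benjamini-Hochberg adjustment and calls at an adjusted p under 0.05. The SE was taken as the size of the log2 fold change over the root of its F statistic. CPM uses TMM-scaled library sizes. With 3 libraries on each side the smallest p of an exact permutation test is 0.1, so none was used. The common biological coefficient of variation was 2.17%. Libraries of the same group differed beyond counting noise (chi-square over its degrees of freedom 1.46 to 2.36), so none was treated as a copy. The GC correction removed each library's lowess trend (span 0.3) with the median GC content of a gene's GENCODE 29 transcripts, which 97.1% of tested genes had. The fit was tested on simulated counts with known changes.

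All 32 genes are named whatever their p, and from each neighbouring list the 4 called genes with the smallest p. The members and lists were chosen with earlier results of these data known. Alternatives were DESeq2 size factors, upper-quartile factors, library sizes alone, structural RNA genes left out, other filters, DESeq2 1.42.0, limma-voom of limma 3.58.1, the replicate number as a block, the GC correction with and without the block, and leaving out each library. A test against a 1.2-fold change was added after seeing the data.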

Additional observations from a re-analysis of the deposited data

How the results depend on the processing

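Over the 18 alternatives, 4 of the 24 calls among the genes kept their direction and call in every one, those of HMGCS1, INSIG2, SCD and FADS1, and 4 more, PMVK, MVD, CYP51A1 and EBP, in every one but library sizes alone. The test against a 1.2-fold change is among the 18, so these 8 passed it by definition. It left no other call among the 31 genes, 4 higher and 4 lower, and 1209 higher and 1113 lower genes in all. ACLY, ACACA and FADS2, all lower, lost their calls in that test alone and kept them in the other 17 alternatives. With library sizes alone 0 of the genes were higher and 28 lower, 505 and 9253 of all genes, and the median log2 fold change of the 31 was -0.41. DESeq2 called 1754 genes lower, against 2766 by edgeR. The median became 0.018 with the GC correction, with or without the replicate block. Leaving out 1 library gave 12 to 15 higher and 9 to 10 lower genes, 2435 to 2675 higher and 2196 to 2579 lower of all genes, and medians of 0.05 to 0.07.

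Signs turned as follows. With library sizes alone, log2 fold changes were -0.055 for MVD, -0.078 for EBP, -0.14 for CYP51A1, -0.16 for FDPS, -0.22 for HSD17B7 and TM7SF2, -0.23 for INSIG1, -0.26 for SQLE, -0.29 for LSS and ACSS2, -0.31 for ACAT2, -0.35 for DHCR7, -0.37 for MSMO1, -0.40 for FASN, -0.41 for MVK, -0.42 for SREBF2 and -0.46 for FDFT1. Among neighbouring genes they were -0.13 for MID1IP1, -0.18 for AGPAT3, -0.24 for STARD3 and -0.37 for AGPAT2. With the GC correction, with or without the replicate block, values were -0.024 for MVK and -0.042 for FASN. Those for SREBF2, SC5D and AGPAT2 were -0.024, 0.053 and -0.013 without the block and -0.022, 0.052 and -0.014 with it. FDFT1, near zero, was -0.0069 with upper-quartile factors, -0.014 with no filter beyond 1 count and -0.0019 with a filter of 5 CPM. SREBF1 ranged from -0.039 to 0.014 over the fits without 1 library. Apart from the scaling, for which the all-gene shift is given above, the cause was not tested.

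With the replicate number as a block the counts were 15 higher and 9 lower, as without it, and no named gene changed its call. Added to the GC correction, the block took NSDHL past the threshold (adjusted p = 0.0495, against 0.0503 without the block). Deviations of same-numbered libraries had correlations of 0.019, -0.0027 and -0.0041, and those of different-numbered libraries ran from -0.013 to 0.016. These values show no pairing by number but cannot exclude it. Low counts limit ELOVL6, which was not tested, and INSIG2, and among the named neighbouring genes MBTPS2, SCD5, PGGT1B and GRAMD1B. In the siNPM1c libraries MBTPS2 had 20, 45 and 30 counts and SCD5 28, 41 and 36. PGGT1B had 31, 47 and 50 counts there and GRAMD1B 14, 20 and 14. In the siControl libraries GRAMD1B had only 5, 9 and 4 counts.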
